A study of Mus musculus with 16 samples.

Results

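The genes described here lie on disomic mouse chromosomes, which neither of 2 Down syndrome mouse models carries in extra copy, and they set trisomic pups apart from euploid littermates in the same direction in both models. They were chosen by their measured values. A gene was a member if its mean normalized count was at least 10 in each cross and if the 4 Ts65Dn values all lay on one side of the 4 values of Ts65Dn euploid littermates while the 4 TcMAC21 values lay on that same side of the TcMAC21 littermates. Of 12093 disomic genes in the table, 11785 reached the minimum mean, 27 met the rule and 25 are members, since 3 genes were set aside by identifier beforehand and 2 of those met it. In 12 members the trisomic pups were higher and in 13 they were lower. No member was near the minimum mean, the lowest having a mean of 46.9 normalized counts over the 16 pups.

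Whole cerebella of pups at postnatal day 6 were measured by sequencing of poly(A) RNA. Ts65Dn pups, on a C57BL/6J x C3H/HeJ background, carry a freely segregating extra chromosome with the distal part of mouse chromosome 16 (MMU16) joined to the start of MMU17. TcMAC21 pups, on a C57BL/6J (B6) x DBA/2J (D2) background, carry a mouse artificial chromosome that holds the greater part of the human chromosome 21 long arm, together with a constitutively expressed GFP gene. The euploid littermates of each cross share its background and lack the extra chromosome, and each of the 4 groups held 4 pups. A normalized count is the number of reads on a gene divided by a size factor of the library. The reads on genes ranged from 6317856 to 25719969 per library, so that the smallest value of any member rested on 19 reads. Y-linked genes summed to more than 100 normalized counts in 2 of 4 Ts65Dn pups, 2 of 4 of their littermates, 4 of 4 TcMAC21 pups and 3 of 4 of theirs, the exception being TcMAC21 euploid replicate 4.

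Granule neurons are by far the most numerous cells of the cerebellum, and in mice their progenitors divide in the external granular layer during the first weeks after birth, driven by Sonic hedgehog that Purkinje cells secrete. A trisomy raises the dose of the genes on the extra segment, and genes on the other chromosomes can be altered secondarily through regulators, signalling or a shift in the cells that make up the tissue. In RNA of a whole tissue, fewer cells of a type and less RNA per cell cannot be told apart. Both models share many triplicated genes, in Ts65Dn as mouse genes and in TcMAC21 as human ones. The deposited identifiers give a chromosome and a number made by the assembler, with no symbol, position or sequence. From them the function of the members is not known, and the cerebellar origin of the samples could not be checked against marker genes. Single members are therefore called by their chromosome. At most 2 identifiers are printed in each direction, by a rule on the width of separation.

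Among the 12 higher members, the mean in Ts65Dn divided by that in euploid littermates ran from 1.18 to 1.96 with a median of 1.44, and the corresponding ratio in TcMAC21 ran from 1.17 to 1.63 with a median of 1.30. In Ts65Dn, 482 of the 11785 disomic genes (4.09%) lay higher without overlap, and in TcMAC21 236 (2.0%) did. Both held for 14 genes (0.119%), which is 2.90% of the Ts65Dn list and 5.93% of the TcMAC21 list. These values chose the members and are given as a description.

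The higher member with the largest ratio in both crosses lies on chromosome 10. Its normalized counts in Ts65Dn replicates 1 to 4 were 2469, 2568, 3397 and 2504, against 1485, 1589, 1339 and 1174 in the euploid littermates. In TcMAC21 they were 1791, 2706, 2891 and 2004, against 1451, 1674, 1535 and 1100. The lowest Ts65Dn pup was well above the highest littermate, while in TcMAC21 replicate 1 came close to euploid replicate 2. On the log2(normalized count + 1) scale the difference was 0.96 (SE 0.141) in Ts65Dn and 0.69 (SE 0.186) in TcMAC21, and it was the widest of the 25 differences in Ts65Dn and in TcMAC21.

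The gene chr11.99112 on chromosome 11 had the widest gap among the members, measured in the cross where its gap was narrower. Its normalized counts were 470.3, 443.8, 691.8 and 529.9 in Ts65Dn and 379.5, 340.6, 293.9 and 300.7 in the littermates. TcMAC21 pups had 369.6, 387.2, 424.5 and 456.1, and their littermates had 319.0, 316.6, 303.3 and 295.3. Ts65Dn replicate 3 was the highest pup, and the euploid pups of both crosses stayed under 380 normalized counts. The group means were 533.9 ± 111 and 328.7 ± 39.7 in the Ts65Dn cross and 409.4 ± 38.7 and 308.6 ± 11.2 in the TcMAC21 cross (SD, n = 4), or log2 differences of 0.68 (SE 0.162) and 0.40 (SE 0.127).

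The gene chr11.94048, also on chromosome 11, varied less between pups than chr11.99112, relative to the mean, except among the TcMAC21 littermates. Ts65Dn pups had normalized counts of 1776, 1470, 1617 and 1534, and euploid littermates had 1172, 1321, 1136 and 1191. TcMAC21 pups had 1486, 1407, 1599 and 1402, against 1244, 1213, 1281 and 1088. The euploid means of the crosses were nearly equal, at 1205 ± 80.5 and 1206 ± 83.4 (SD, n = 4), and both trisomic means lay above them, at 1599 ± 132 in Ts65Dn and 1474 ± 92.2 in TcMAC21 (SD, n = 4). The log2 differences were 0.41 (SE 0.107) and 0.29 (SE 0.110).

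The other 9 higher members held both the most and the least abundant of the 25. The most abundant, on chromosome 3, ran from 6586 to 7397 normalized counts in Ts65Dn against 3864 to 6474 in the littermates, and from 4975 to 7401 in TcMAC21 against 4318 to 4802. A chromosome 1 member ran from 4127 to 5542 against 2862 to 3937 in the Ts65Dn cross and from 3980 to 4283 against 3245 to 3734 in the TcMAC21 cross. Its difference was more marked in Ts65Dn, with a ratio of 1.47 against 1.17 in TcMAC21. A chromosome 10 member with the smallest ratio in Ts65Dn (1.18) ran from 1796 to 1876 against 1434 to 1711 there, and from 1787 to 2366 against 1456 to 1718 in TcMAC21. A chromosome 19 member ran from 985.5 to 1616 against 879.2 to 954.1 in the Ts65Dn cross and from 947.4 to 1127 against 738.9 to 919.1 in the TcMAC21 cross. In the chromosome 19 and chromosome 1 members the euploid littermates of the 2 crosses covered overlapping ranges.

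Members on chromosomes 2 and 5 lay near the middle of the abundance range. The chromosome 2 member ran from 656.2 to 1036 normalized counts against 581.0 to 649.8 in the Ts65Dn cross and from 714.5 to 1189 against 635.7 to 682.7 in the TcMAC21 cross. The chromosome 5 member ran from 925.1 to 1061 against 672.5 to 907.7 and from 755.5 to 912.8 against 622.2 to 731.1. In the chromosome 2 member the trisomic pups spread widely while the euploid pups of both crosses were tightly grouped, and the margin in Ts65Dn was only 0.014 on the log2 scale. Of the 3 least abundant higher members, a second chromosome 3 member ran from 207.3 to 311.0 against 162.9 to 193.0 in the Ts65Dn cross and from 206.5 to 292.2 against 162.6 to 193.2 in the TcMAC21 cross. The chromosome 7 member ran from 99.8 to 144.7 against 75.1 to 91.7 and from 103.2 to 118.5 against 66.9 to 88.1. Another chromosome 11 member, the least abundant of the 25, ran from 56.7 to 72.8 against 42.0 to 47.4 and from 37.4 to 52.3 against 25.9 to 34.8. The last of these had ratios of 1.41 in Ts65Dn and 1.53 in TcMAC21, and TcMAC21 pups overlapped the euploid littermates of the other cross.

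**Figure D1:**
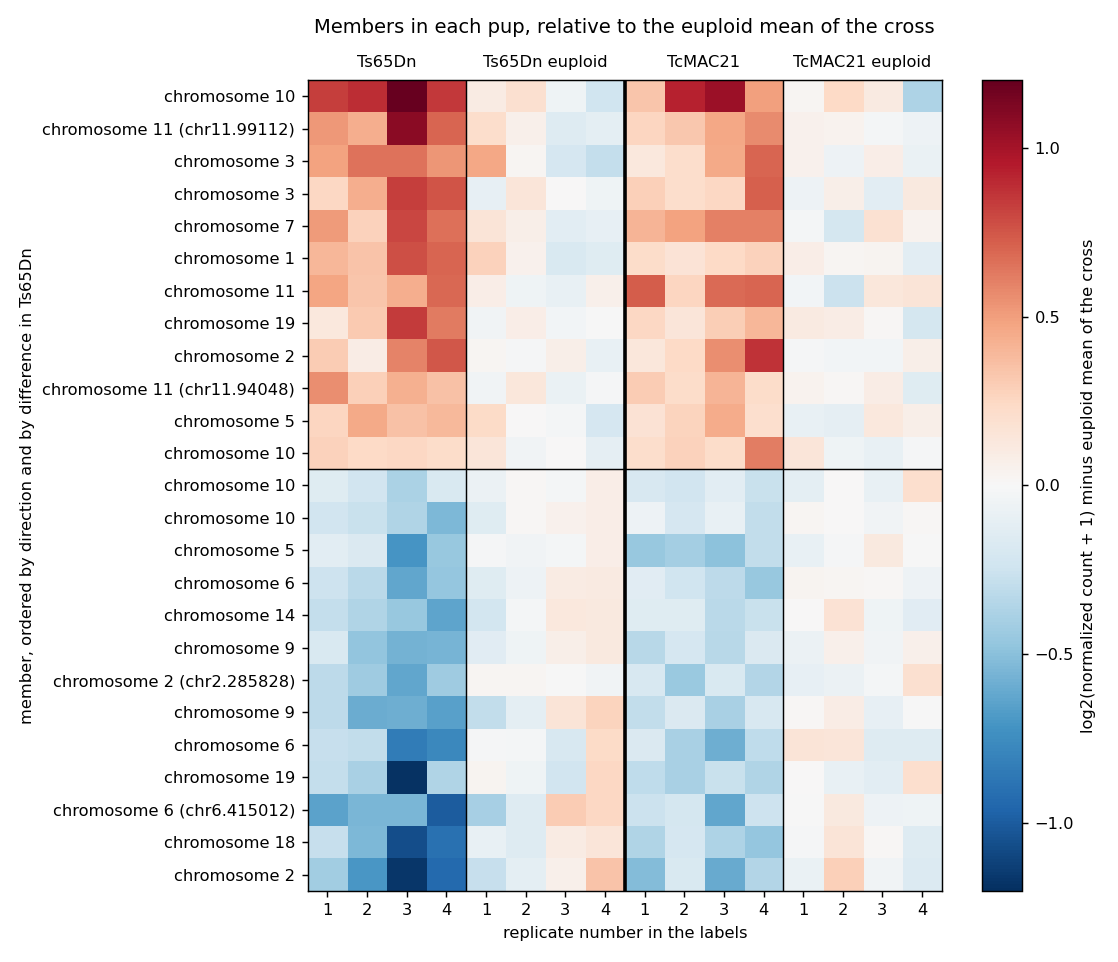
Each row is a member and each column a pup, numbered by replicate within its group; the colour is log2(normalized count + 1) minus the mean of the 4 euploid littermates of the same cross. The 12 upper rows are red in both trisomic groups and the 13 lower rows blue, which the rule imposed, and the colours are mostly deeper in Ts65Dn, above all in replicate 3, than in TcMAC21.

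Among the 13 lower members, the mean in Ts65Dn divided by that in euploid littermates ran from 0.574 to 0.850 with a median of 0.735, and that of TcMAC21 ran from 0.748 to 0.894 with a median of 0.816. Over the disomic genes, 518 (4.4%) lay lower without overlap in Ts65Dn and 262 (2.22%) in TcMAC21. Both held for 13 genes (0.11%), which is 2.51% of the Ts65Dn list and 4.96% of the TcMAC21 list. A single disomic gene (0.00849%) separated the genotypes in opposite directions in the 2 crosses, and 27 did so in the same direction. Neither count was compared with the overlap that the shares in each cross alone would give. The crosses had their own littermates and shared no control pups, but all 16 libraries were assembled and scaled together.

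The gene chr6.415012 on chromosome 6 had normalized counts of 162.3, 173.9, 173.2 and 126.8 in Ts65Dn, against 192.9, 227.6, 313.8 and 303.2 in the littermates. TcMAC21 pups had 230.4, 236.9, 178.4 and 231.0, against 274.6, 298.8, 263.4 and 264.7. Ts65Dn replicate 4 and TcMAC21 replicate 3 each lay below the other 3 pups of their group, and the Ts65Dn littermates spread widely. The means were 159.1 ± 22.1 and 259.4 ± 58.6 in the Ts65Dn cross and 219.2 ± 27.3 and 275.4 ± 16.4 in the TcMAC21 cross (SD, n = 4), giving log2 differences of -0.68 (SE 0.190) and -0.34 (SE 0.145).

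The gene chr2.285828 on chromosome 2 had normalized counts of 210.7, 195.1, 170.2 and 194.6 in Ts65Dn, against 267.2, 266.5, 260.8 and 254.1 in the littermates. TcMAC21 pups had 242.4, 203.4, 243.2 and 217.2, against 258.7, 263.4, 272.5 and 315.8. The Ts65Dn littermates were nearly alike, and in TcMAC21 euploid replicate 4 was the highest of the 16 pups. The means were 192.6 ± 16.7 and 262.2 ± 6.10 in the Ts65Dn cross and 226.5 ± 19.6 and 277.6 ± 26.1 in the TcMAC21 cross (SD, n = 4), giving log2 differences of -0.45 (SE 0.124) and -0.29 (SE 0.139).

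The lowest ratio in both crosses belonged to another chromosome 2 member. Its normalized counts were 358.9, 294.8, 213.5 and 251.1 in Ts65Dn against 395.3, 441.6, 501.7 and 609.0 in the littermates, and 383.1, 484.6, 362.5 and 430.4 in TcMAC21 against 521.7, 674.1, 534.0 and 491.6. The pups of the Ts65Dn cross covered a wide range within each genotype, while the narrowest margin, 0.021 on the log2 scale, was in TcMAC21 between replicate 2 and euploid replicate 4. Under both TMM scaling and quantile normalization this gene no longer met the rule. The log2 differences were -0.81 (SE 0.189) and -0.42 (SE 0.150). The chromosome 18 member ran from 314.9 to 545.4 against 593.6 to 728.4 in the Ts65Dn cross and from 541.0 to 649.0 against 669.4 to 828.3 in the TcMAC21 cross, with ratios of 0.630 and 0.785.

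Of the remaining 9 lower members, the most abundant, on chromosome 14, ran from 3473 to 4416 normalized counts against 4609 to 5857 in the Ts65Dn cross and from 4271 to 4822 against 4863 to 6004 in the TcMAC21 cross. The 2 members on chromosome 9 had closely similar levels. One ran from 1738 to 2188 against 2217 to 3284 and from 2172 to 2527 against 2664 to 3037, with ratios of 0.683 and 0.833. The other ran from 1864 to 2430 against 2510 to 2991 and from 2459 to 2745 against 2956 to 3230, with ratios of 0.739 and 0.835. Between the pair of chromosome 9 members lay 194 tested genes in the order of the identifier numbers, if that number follows the chromosome, which the study's methods do not state. A chromosome 6 member at a similar level ran from 1404 to 1819 against 1947 to 2332 in the Ts65Dn cross and from 1623 to 2022 against 2135 to 2269 in the TcMAC21 cross.

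On chromosome 10, a lower member ran from 2826 to 3324 against 3514 to 3879 in the Ts65Dn cross and from 2575 to 2844 against 2852 to 3569 in the TcMAC21 cross. It had the narrowest margin of any member, 0.0038 on the log2 scale, between TcMAC21 replicate 3 and TcMAC21 euploid replicate 1. Only 7 tested genes lay between it and the higher chromosome 10 member with the largest ratio, in identifier order, and these neighbours differed from euploid in opposite directions. A second lower member of chromosome 10 ran from 537.4 to 668.8 against 710.0 to 827.5 and from 564.7 to 663.6 against 675.7 to 706.2. The lower chromosome 5 member ran from 350.3 to 525.3 against 557.3 to 606.4 in the Ts65Dn cross and from 531.5 to 610.1 against 700.4 to 807.4 in the TcMAC21 cross. It was the only lower member whose difference was larger in TcMAC21 (-0.41, SE 0.115) than in Ts65Dn (-0.37, SE 0.144). The least abundant lower members, on chromosomes 6 and 19, ran from 104.3 to 154.3 against 163.5 to 220.2 and from 74.8 to 140.2 against 145.9 to 203.3 in the Ts65Dn cross. In the TcMAC21 cross they ran from 136.2 to 182.3 against 184.4 to 228.9 and from 131.7 to 143.7 against 158.0 to 199.3.

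**Figure D2:**
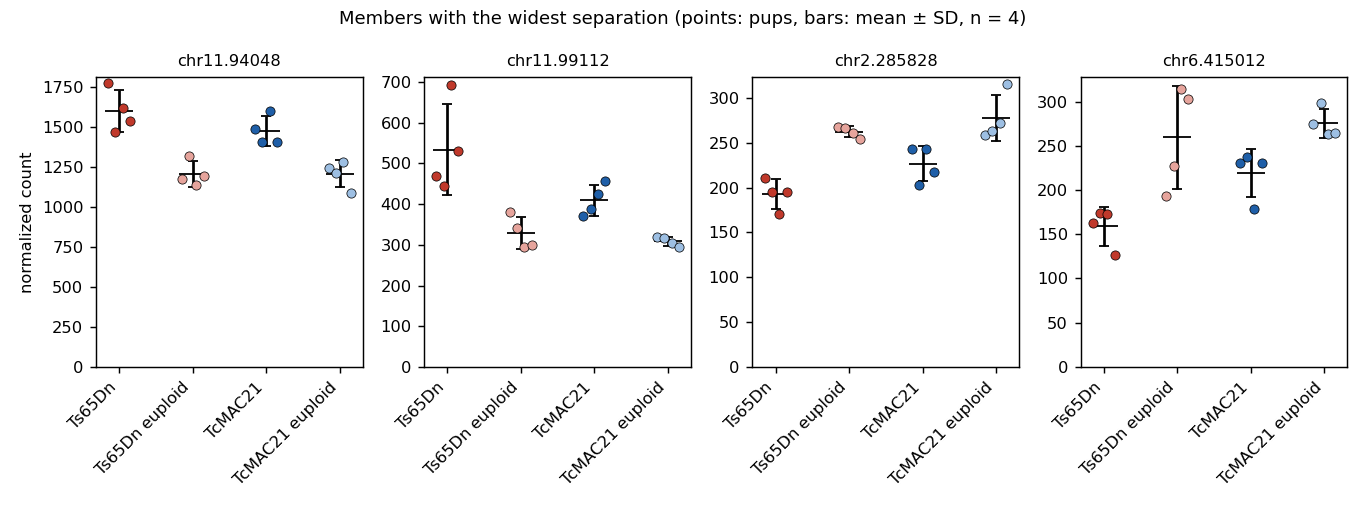
The normalized counts of chr11.94048, chr11.99112, chr2.285828 and chr6.415012 are plotted on linear axes from 0 for the 4 pups of each group (points), with mean and SD (bars). The trisomic groups sit above their littermates in the chromosome 11 genes and below them in the other pair, and the TcMAC21 groups lie closer to their littermates than the Ts65Dn groups do to theirs.

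The size of the difference was larger in Ts65Dn than in TcMAC21 for 21 of the 25 members, 9 of the 12 higher and 12 of the 13 lower. The median size on the log2 scale was 0.48 in Ts65Dn and 0.33 in TcMAC21. Over the 11785 disomic genes the median size was 0.21 and 0.16, so the Ts65Dn cross had the larger differences there too. Among the disomic genes whose genotypes did not overlap in Ts65Dn the median size there was 0.39, and among those that did not overlap in TcMAC21 it was 0.36. A ratio above 1.5 or below its inverse was found for 6 members in Ts65Dn and for 2 in TcMAC21. Since the rule used both contrasts, the difference in size between the models was not tested.

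**Figure D3:**
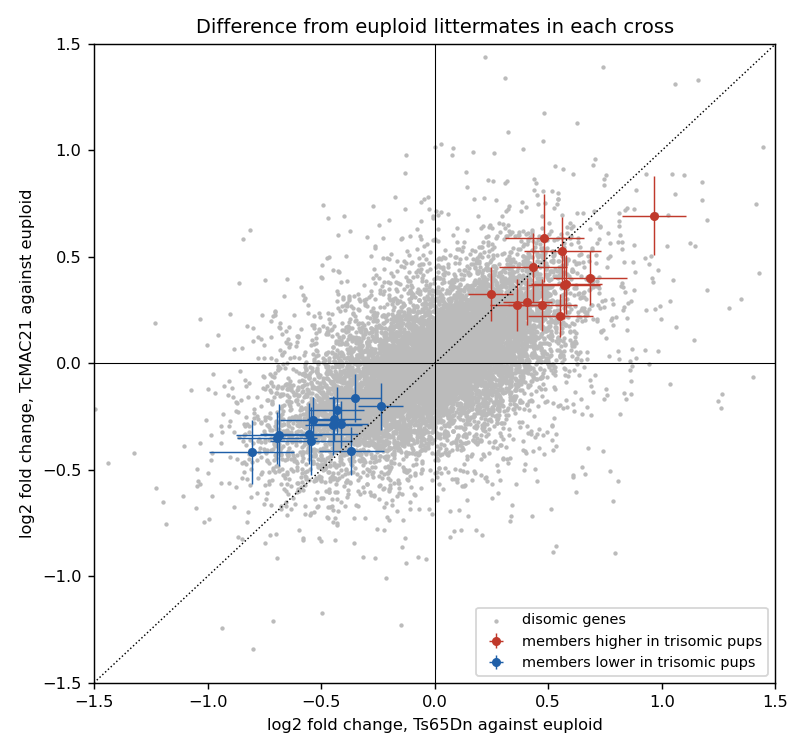
Each grey point is a disomic gene, placed by its log2 fold change in Ts65Dn (horizontal) and TcMAC21 (vertical), and the coloured points are the members with standard errors; 8 genes lie beyond the axes. Many grey genes lie as far out as the members, whose log2 fold changes run from -0.81 to 0.96 in Ts65Dn and from -0.42 to 0.69 in TcMAC21, and 21 of the 25 members lie between the horizontal axis and the dotted line of equal change.

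The members differed from other disomic genes in how little they varied between pups of a group. Their coefficient of variation within a group, averaged over the 4 groups, had a median of 10.7% and ran from 6.33% to 17.2%, against a median of 17.3% over the disomic genes. The rule favours such genes, because groups with little spread overlap less. By mean normalized count over the 16 pups, 10 members were in the highest quartile of the disomic genes, 6 in the next, 6 below that and 3 in the lowest. Their median mean was 755.8 normalized counts, against 464.6 over the disomic genes. The abundance of the higher members (median 917.3) and of the lower ones (median 603.2) covered overlapping ranges.

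Members were found on 12 of the 17 disomic autosomes tested. Chromosome 10 held 4 (2 higher and 2 lower), or 0.621% of its 644 tested genes. Chromosomes 2, 6 and 11 held 3 each, or 0.28%, 0.47% and 0.273% of their tested genes, and chromosome 19 held 2, or 0.467%. Over all 11785 disomic genes, 0.119% met the rule as higher and 0.11% as lower, before genes were set aside. The 3 members of chromosome 11 were all higher and the 3 of chromosome 6 all lower. With so few members per chromosome, no pattern was read from this. Chromosomes 4, 8, 12, 13 and 15 held none of their 841, 714, 471, 468 and 537 tested genes. Part of chromosome 10 is orthologous to human chromosome 21, and whether its members lie there cannot be read from the identifiers. The nearest pair of members was the pair on chromosome 10 with 7 tested genes between them, and the others on a shared chromosome had at least 30 between them.

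Pups of a group differed in how far the members lay from the other genotype. In each pup the log2 values of the 12 higher members were averaged after subtraction of the euploid mean of the cross. This mean was 0.42, 0.40, 0.69 and 0.60 in Ts65Dn replicates 1 to 4, and 0.29, 0.31, 0.47 and 0.53 in TcMAC21 replicates 1 to 4. For the 13 lower members it was -0.29, -0.41, -0.70 and -0.61 in Ts65Dn and -0.26, -0.26, -0.36 and -0.31 in TcMAC21. Ts65Dn replicates 3 and 4 stood farther from their littermates than replicates 1 and 2 in both sets. Ts65Dn replicate 3 was the pup farthest from euploid in 16 of the 25 members. The nearest pup was replicate 1 in 12 of the 13 lower members, whereas among the 12 higher members it was replicate 2 in 6 and replicate 1 in 5. Over the disomic genes, replicate 1 was the lowest of the 4 Ts65Dn pups in 33% and the highest in 34.7%, and replicate 3 was the lowest in 27.5% and the highest in 31.3%.

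Among the euploid littermates of Ts65Dn the means of the higher members were 0.13, 0.05, -0.07 and -0.11 and those of the lower members -0.13, -0.06, 0.04 and 0.16. Replicate 1 lay nearest the trisomic pups in 15 of the 25 members and replicate 4 lay farthest in 15. Euploid replicate 1 also stood apart over the disomic genes at large, being the lowest of the 4 littermates in 43.4% of them and the highest in 42.2%. The littermates of TcMAC21 lay between -0.05 and 0.04 for the higher members and between -0.05 and 0.07 for the lower ones, a narrower range. Over the disomic genes, TcMAC21 euploid replicate 4 was the lowest of its group in 36.5% and the highest in 37.9%. TcMAC21 replicate 4 was the lowest of the trisomic pups in 39.5% and the highest in 39.7%, and was the pup farthest from euploid in 12 of the 25 members. Among the TcMAC21 littermates no single pup was nearest the trisomic pups in more than 9 of the 25 members.

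**Figure D4:**
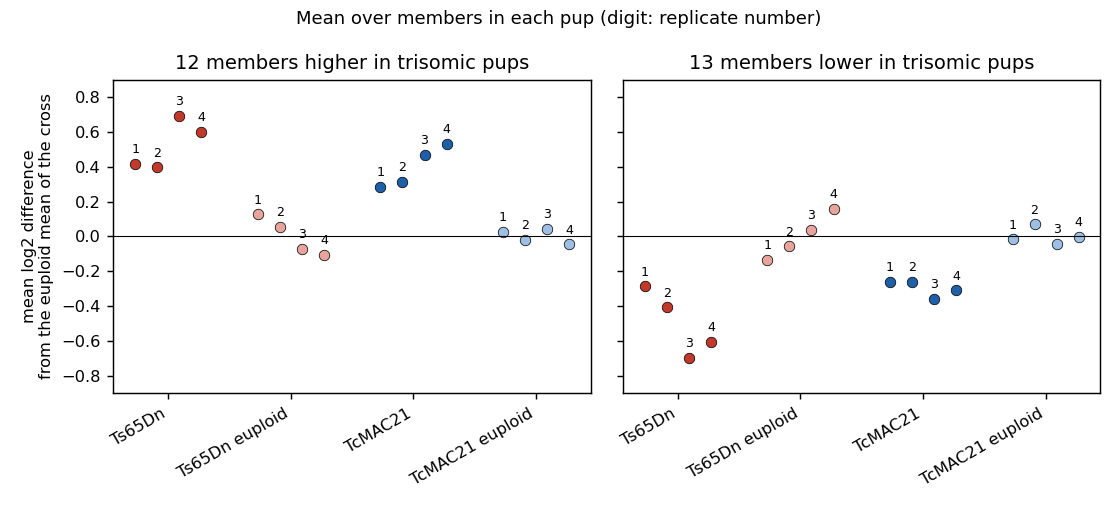
Each point is a pup, with its replicate number, and the vertical axis is the mean over the 12 higher (left) or 13 lower (right) members of log2(normalized count + 1) minus the euploid mean of the cross. Ts65Dn replicates 3 and 4 lie farthest from 0 in both panels (0.69 and 0.60, -0.70 and -0.61), and euploid replicates 1 and 4 of that cross lie on opposite sides of 0.

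Tested over the whole table by limma on log2(normalized count + 1), none of the 25 members passed a Benjamini-Hochberg adjusted p of 0.05 in Ts65Dn (background 0.0% of 11785 disomic genes) or in TcMAC21 (0.00849%). The adjusted p ran from 0.0902 to 0.273 in Ts65Dn and from 0.350 to 0.730 in TcMAC21. By limma 25 and 21 members had an unadjusted p under 0.05, which the rule brings about. Both held, with the same sign, for 21 members and for 189 of the 11785 disomic genes. The share of disomic genes in each contrast alone is not given. By edgeR on the recovered reads 0 members passed in either cross, where 0.0% and 0.00849% of disomic genes passed. By DESeq2 on those reads 12 members passed in Ts65Dn, 5 higher and 7 lower, where 2.08% of disomic genes passed. In TcMAC21 DESeq2 called 1 member, the lower one on chromosome 5 (adjusted p = 0.0349), where 0.119% of disomic genes passed. In TcMAC21, whose same-numbered pups deviated together from their group means, each of the 25 members differed in its direction in 4 of 4 pairs, as the rule requires. When the pairing entered the limma model as a replicate block, 1 member was called, the chromosome 10 gene with the largest ratio (adjusted p = 0.0268), where 0.866% of disomic genes passed.

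The number of calls, and of genes that met the rule, changed with single pups. Without Ts65Dn euploid replicate 1, limma called 21 of the 25 members in Ts65Dn, where 27.6% of disomic genes were called, and 20 members had a larger difference than with all pups. With 3 pups left in a group overlap is less likely, and the 25 members met the rule by construction whichever pup was left out. The rule then returned 335 genes without Ts65Dn euploid replicate 1, 103 without TcMAC21 replicate 4, 97 without TcMAC21 euploid replicate 4, 70 without Ts65Dn replicate 1, 60 and 55 without TcMAC21 replicates 1 and 2, and 44 and 46 without TcMAC21 euploid replicates 1 and 3. Without TcMAC21 euploid replicate 4, the only pup of its cross with near 0 Y-linked reads, the median difference in TcMAC21 was 0.36 for the higher members and -0.27 for the lower ones, against 0.37 and -0.29 with all pups. With TMM scaling of the recovered reads 22 of the 25 members still met the rule, and with quantile normalization 20 did. The chromosome 14 member and the chromosome 2 member with the lowest ratio were lost under both, the higher chromosome 2 member under TMM alone, and the chromosome 18 member, the least abundant chromosome 11 member and the higher chromosome 5 member under quantile normalization alone. The 4 genes named by identifier were kept in each case. Just outside the rule, 77 disomic genes missed it by 1 of the 32 comparisons between a trisomic and a euploid pup, 40 of them in Ts65Dn and 37 in TcMAC21, and the nearest, on chromosome 7, overlapped by 0.00029 on the log2 scale.

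A contrast that the rule did not use is that between the euploid littermates of the 2 crosses. Of the 25 members, 0 passed an adjusted p of 0.05 by limma (background 0.136% of 11767 disomic genes) and 2 had an unadjusted p under 0.05, where 14.2% of the disomic genes did. The least abundant member, on chromosome 11, was higher in Ts65Dn littermates (44.8 against 31.4 normalized counts, log2 difference 0.51, SE 0.205, adjusted p = 0.305). The lower chromosome 5 member was lower in them (573.4 against 747.7 normalized counts, log2 difference -0.38, SE 0.116, adjusted p = 0.190), and was the single member called in this contrast by DESeq2 (adjusted p = 0.0306), where 3.49% of the disomic genes passed; edgeR called 0, with 0.119% of the disomic genes. The median size of the difference was 0.084 over the members and 0.19 over the disomic genes. For chr11.94048 the difference was -0.002 (SE 0.115), for chr11.99112 0.084 (SE 0.138), for chr2.285828 -0.078 (SE 0.134) and for chr6.415012 -0.11 (SE 0.179). Background strain, litter and collection cannot be told apart in this contrast, and the pups in it also took part in the choice of members. The rule favours genes with little spread between pups, so the smaller median difference was not read as a result about the members.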

How the data were processed

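The authors mapped paired 50 bp reads with STAR 2.4.2a to mouse mm39 with human chromosome 21 appended, assembled genes over the 16 libraries with PsiCLASS, and deposited a DESeq2 normalized count per gene and library, a signal of reads divided by a size factor and rounded to 2 decimals. Dividing by the step of each library gave back whole reads for 100% of values (tolerance 0.006). A count of 3 reads corresponds to at most 6.63 normalized counts, and depth limits cover counting error only. Groups and replicate numbers came from the labels.

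Members and tests were chosen with earlier results of these data known. Per contrast, limma 3.58.1 (lmFit, eBayes with trend) was fitted on log2(normalized count + 1) over genes with a mean of at least 10, with Benjamini-Hochberg adjustment; fold changes on this scale understate low genes. edgeR 4.0.16 (quasi-likelihood) and DESeq2 1.42.0 on recovered reads, other scalings, filters, pseudocounts, blocks, a Y-linked covariate and leaving out each pup were alternatives. The tests were also run on simulated counts, with the outcome not given here. Printed identifiers are the 2 higher and 2 lower members with the widest gap in the cross where it is narrower, among means of at least 100; the other members were described after their values were seen. Pathway lists, positions and sequences were not used here, since the deposited table pairs no symbols with the identifiers.

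The study took trisomic and euploid pups in pairs from litters, and the labels number both groups. Deviations of same-numbered pups from their group means correlated by 0.491, 0.502, 0.197 and 0.50 in the TcMAC21 cross. There the numbers were taken to pair the pups. In the Ts65Dn cross the deviations correlated by -0.45, -0.13, -0.35 and -0.22, and the numbers were not taken to pair the pups. These correlations do not show which pups were littermates. Per the study's methods the pairs came from 2 Ts65Dn and 3 TcMAC21 litters, so some of the 4 pups of a group share a litter. Which pup came from which litter is not in the labels, and the fits without a block treat the pups as independent, so that SEs and p-values measure only the spread between these pups. R 4.3.3, Python 3.11.15 and matplotlib 3.10.9 were used.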

Additional observations from a re-analysis of the deposited data

Results flagged for a closer look

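In 100 sets of 4 values (25 members in 4 groups), 6 held a pup whose gap to the nearest other pup exceeded Dixon's critical share of the range at the 95% level for 4 samples. About 1 in 20 sets is flagged in this way without any real outlier, if sets are not chosen by their values. These sets were, so that rate need not hold here. The 6 sets were of trisomic pups. Ts65Dn replicate 3 had 3397 normalized counts of the higher chromosome 10 member with the largest ratio, where the other 3 pups had 2469 to 2568. It had 74.8 of the lower chromosome 19 member, where the others had 130.8 to 140.2. TcMAC21 replicate 4 had 2366 of another higher chromosome 10 member, where the others had 1787 to 1870, and 292.2 of the less abundant chromosome 3 member, where the others had 206.5 to 217.0. TcMAC21 replicate 2 had 37.4 of the least abundant chromosome 11 member, where the others had 50.7 to 52.3. TcMAC21 replicate 3 had 178.4 of chr6.415012, where the others had 230.4 to 236.9. In the chromosome 11 member the pup was the one nearest its euploid littermates, and in the other 5 it was the one farthest from them. The rule leaves less room for a stray pup on the side of the other genotype. The causes were not tested.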

How the results depend on the processing

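The rule returned 25 genes with no minimum mean, 24 with a minimum of 50, 26 with TMM scaling and 33 with quantile normalization. It returned 126 genes, the 25 members among them, when a linear term in the log2 Y-linked sum, fitted beside genotype, was removed within each cross. Removing a fitted term lowers the spread within groups, so overlap is less likely, and other causes were not tested. The rule returned 427 when only same-numbered pairs had to agree, a looser rule by construction. With each pup left out in turn the count ran from 26 to 335, the latter without Ts65Dn euploid replicate 1. Members called in Ts65Dn numbered 12 by DESeq2, 1 with the 16 pups in one fit and 0 to 21 with a pup left out. The 21 were called without Ts65Dn euploid replicate 1. The share of disomic genes called by the one fit of 16 pups is not given here. Members called in Ts65Dn numbered 0 under the other alternatives, the replicate block included. Whether same-numbered pups of that cross are pairs is not known. Members called in TcMAC21 numbered 1 by DESeq2 and 1 with the replicate block, and members called between euploid littermates numbered 1 by DESeq2; both were 0 under the other alternatives and with any pup left out. The directions of the 4 genes named by identifier held under each alternative. The shallowest library, with 6317856 reads, limits the precision of the least abundant members.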

Other observations

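The same rule was applied to chromosomes set aside from the members; of the 11785 disomic genes, 0.119% met it as higher and 0.11% as lower in trisomic pups. On MMU16 and MMU17, 0 of 1099 genes separated the genotypes in the same direction in both crosses and 1 did so in opposite directions. The mouse genes of these chromosomes have no extra copy in TcMAC21, and only part of them have one in Ts65Dn. On the X chromosome 3 of 446 genes (0.673%) separated the genotypes in the same direction in both crosses, 2 higher and 1 lower in trisomic pups. Y-linked sums above 100 normalized counts were found in 4 trisomic and 3 euploid pups of the TcMAC21 cross. In the Ts65Dn cross they were found in 2 trisomic and 2 euploid pups. A link between sex and these X-linked genes was not tested.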
